A study of Mus musculus with 12 samples.

Results

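Hepa1-6 is an established mouse hepatoma line that keeps some products of the liver cell it came from, among them albumin and the fetal protein Afp. Its transcriptome was compared after culture with primary mouse liver sinusoidal endothelial cells (LSECs) and after culture alone. The comparison used 6 of the 12 libraries in the study, chosen by their labels, with 3 libraries of co-cultured Hepa1-6 cells and 3 of Hepa1-6 cells alone. The other 6 libraries held LSECs, 3 in co-culture and 3 alone, and are used here only where an effect in Hepa1-6 cells is set against the effect in LSECs. Per the labels, 100000 Hepa1-6 cells were seeded in an insert with 3 μm pores over 500000 LSECs in a 12-well plate, so the cells shared medium but lay on opposite sides of a membrane. Medium was changed on the next day to DMEM with 2% serum, and RNA was taken after 24 h. All groups carry the same protocol text, and it does not say whether mono-cultures also used inserts. Hepa1-6 is 1 line, and the labels do not say whether the 3 libraries of a group came from separate cultures, so the p-values measure the spread between these libraries, which may be technical.

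Sinusoidal endothelial cells line the capillaries of the liver lobule, and they exchange growth factors, cytokines and metabolites with the neighbouring hepatocytes. A hepatoma cell resembles a dividing hepatocyte, which spends much of its transcription on building ribosomes and nucleotides and also secretes plasma proteins through the endoplasmic reticulum and Golgi. The factor MYC is known to raise ribosome assembly, nucleotide synthesis and translation genes together. The factors XBP1 and ATF6 are known to raise genes of the secretory route.

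Levels are given as CPM, counts scaled to the library total with TMM factors common to all libraries, and changes as log2 fold changes of co-culture over alone with their standard error (SE). A gene was called when its Benjamini-Hochberg adjusted p in the edgeR quasi-likelihood test was below 0.05. Total counts ran from 32761492 to 43525113 per library, and genes of the mitochondrial genome took 5.08% to 5.30% of them. Library pairs within a group correlated at 0.9964 to 0.9970 (Pearson, log2 CPM, across genes, which are not independent replicates), and none was close enough to another to be a duplicate. Of 19 sinusoidal and 24 pan-endothelial marker genes, 10 each had no count in the 6 libraries, among them Cdh5, Tek, Emcn, Lyve1 and Clec4g. Of 20 macrophage and Kupffer cell genes 10 had none, among them Clec4f, Cd5l, Marco and Vsig4. The other listed genes had counts, some more in co-culture and some fewer. Adgre1 had 27 raw counts in co-culture and 4 alone, and Mrc1 had 13 and 38. Those tested are described with the cell markers below. In bulk libraries a change in the share of cells in a given state and a change in RNA per cell cannot be told apart.

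Most called differences were small. Of 14796 genes tested, 1258 (8.5%) were higher in co-culture and 1040 (7.03%) were lower, 15.5% in all. Among the higher genes 98 differed by 2-fold or more while 238 differed by less than 1.1-fold and 455 by 1.1- to 1.2-fold. Among the lower genes 13 reached 2-fold, while 337 differed by less than 1.1-fold and 480 by 1.1- to 1.2-fold. The median fold was 1.18 for the higher genes and 1.12 for the lower ones. Summed over the called genes, the higher ones took 146921 CPM in co-culture and 127477 CPM alone, and the lower ones 168464 CPM in co-culture and 184936 CPM alone. The lower genes were thus smaller in fold but higher in level. Of the fifth of tested genes with the highest level, 15.8% were higher and 17.3% lower, against 2.3% and 0.61% of the fifth with the lowest level.

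**Figure D1:**
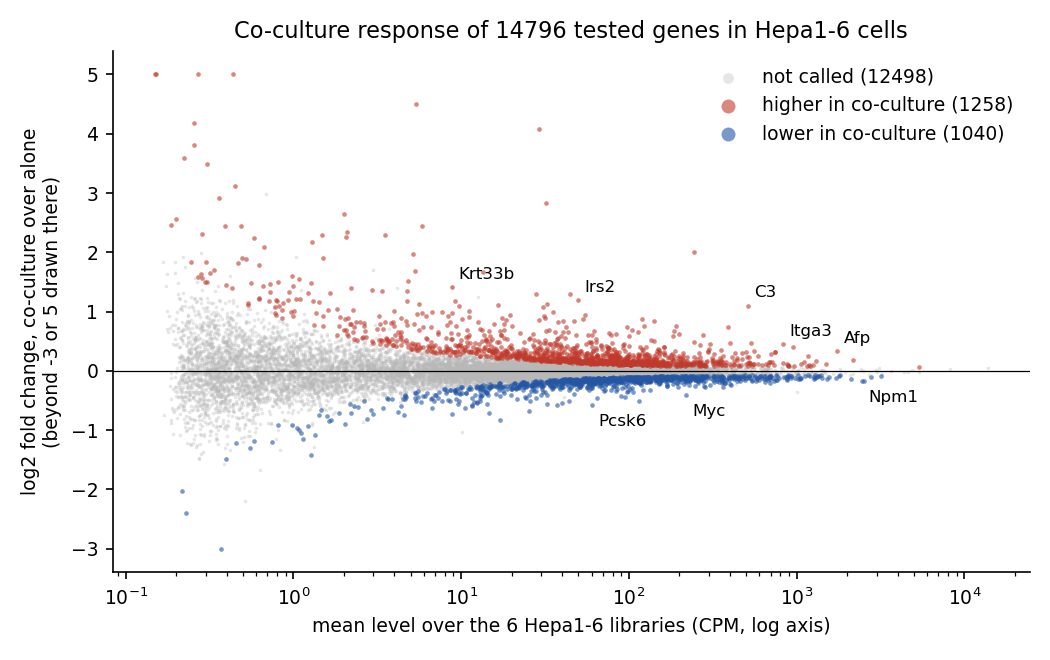
Each point is 1 tested gene in Hepa1-6 cells, with its mean level over the 6 libraries on the horizontal axis (CPM, log axis) and its log2 fold change of co-culture over alone on the vertical axis. Red points were called higher (1258), blue points lower (1040) and grey points were not called. Most coloured points lie close to 0, and few blue ones lie below -1.

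Of 12172 protein-coding genes tested, 1213 were higher and 984 lower. Of 1299 long noncoding RNA genes 36 were higher and 35 lower, and of 987 pseudogenes 5 and 17. None of 125 small nucleolar RNA genes was called, with a median log2 fold change of -0.15. Calls also followed transcript length. Of the fifth of genes with the shortest transcripts 3.07% were higher and 8.21% lower, and of the fifth with the longest 11.6% were higher and 4.77% lower. Across the 14796 genes the Spearman correlation of log2 fold change with length was 0.14, a description only, since genes share libraries. Length as a part of the results below was not tested; median transcript lengths are given beside several lists.

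The split of calls depended on several choices. On the authors' TPM values, limma called 864 genes higher and 423 lower (67.1% of calls higher, against 54.7% with counts). Among the genes named in the text, Acly, Arhgap39, Cpt1a, Eef1d, Esr1, Hsp90ab1, Hspa4l, Jup, Mrpl15, Mrpl19, Myof, Nop56, Nrg1, P2rx4, Pck2, Scn8a, Stat3, Ugcg and Xrcc5 were not called on log2(TPM + 1). Without replicate 1 of Hepa1-6 alone 918 were higher and 665 lower, and without its replicate 2 957 and 683. In 1 fit over all 12 libraries, which takes its spread from the LSEC libraries too, 38 genes were higher and 3 lower, and no list described here kept more than 2 called members in a direction.

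**Figure D2:**
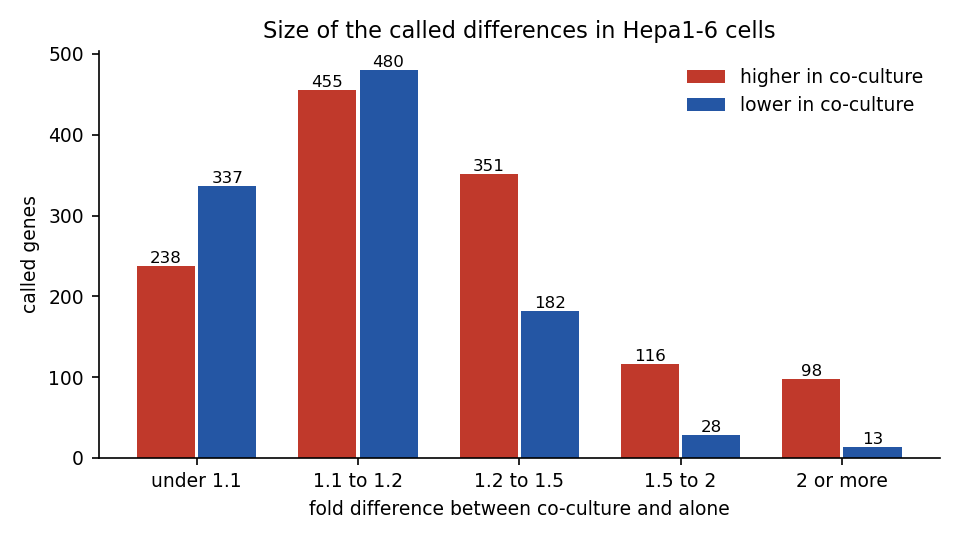
Number of called genes (vertical axis) by fold difference between co-culture and alone (horizontal axis), in red for genes higher and blue for genes lower in co-culture. The classes from 1.1- to 1.2-fold hold the most genes, 455 higher and 480 lower, and the classes of 2-fold or more hold 98 and 13.

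**Figure D3:**
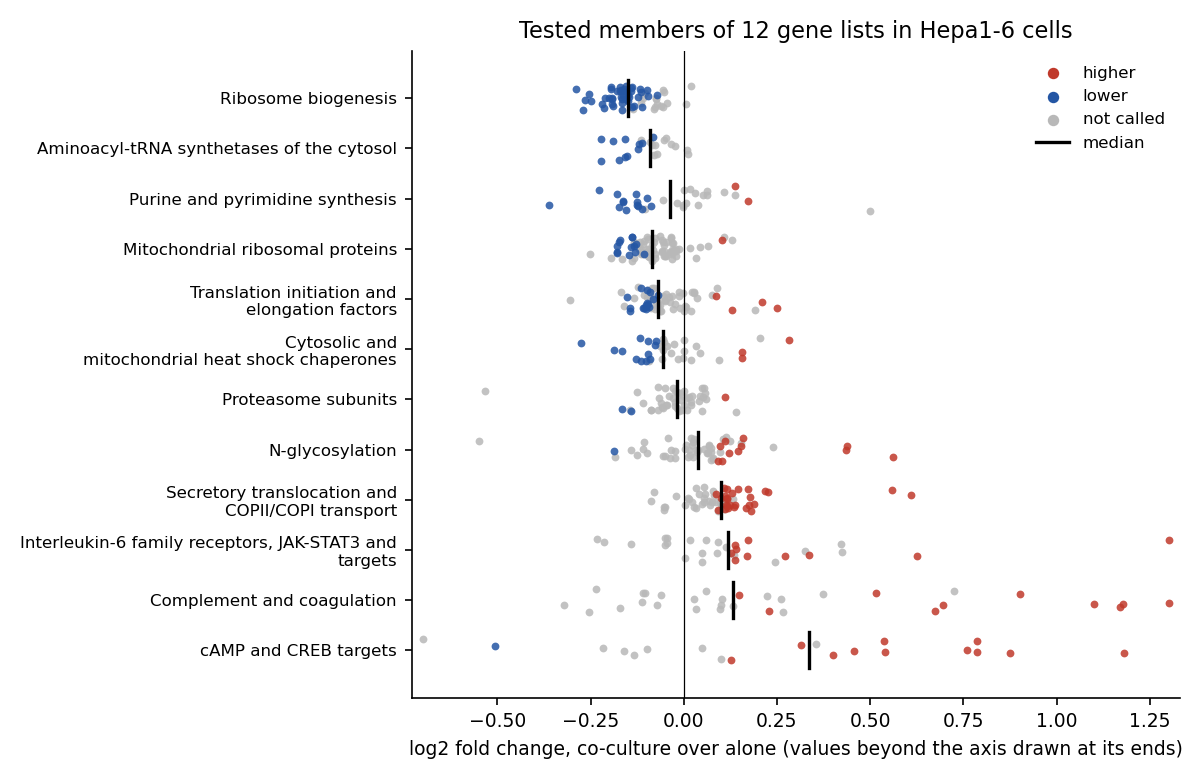
Each point is 1 tested member of a gene list, placed by its log2 fold change of co-culture over alone; red members were called higher, blue lower and grey were not called. Black bars mark the medians of the 12 lists, which run from -0.15 for ribosome biogenesis to 0.33 for cAMP and CREB targets, and points beyond the axis are drawn at its ends.

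Genes that assemble ribosomes were lower in co-culture as a group. Of 60 tested members of the ribosome biogenesis list 44 fell, 0 rose and 16 did not pass the test, where 7.03% of all tested genes fell. The list median was -0.15, against -0.0043 over all tested genes. Summed, the members took 13257 to 13473 CPM in co-cultured libraries and 14638 to 14938 CPM alone, so the groups did not overlap. The median transcript length of the list, 2618 bases, was near that of all tested genes, 2735 bases. The median level of the list was 119 CPM, and of the fifth of tested genes with the highest level 17.3% fell. Called members lay between -0.29 and -0.07.

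Several steps of ribosome assembly were among the called members. Noc2l, which takes part in maturation of the large subunit, stood at 154, 150.1 and 158 CPM in co-cultured cells, against 184, 181 and 187 CPM alone (log2 fold change -0.26, SE 0.029, adjusted p = 2.07e-06). Nop56, a core protein of the box C/D particles that guide rRNA methylation, stood at 336, 341 and 343 CPM in co-culture, against 382, 395 and 390.2 CPM alone (-0.20, SE 0.025, adjusted p = 7.63e-06). Fbl, the methyltransferase of the same particles, stood at 179, 181 and 176 CPM in co-culture and 212, 207 and 202 CPM alone (-0.21, SE 0.028, adjusted p = 1.03e-05). Nat10, an RNA acetyltransferase that modifies rRNA, averaged 62.5 ± 1.93 CPM in co-culture and 76.3 ± 0.471 CPM alone (SD, n = 3 each; -0.29, adjusted p = 1.43e-05). Among these 4 genes every co-culture library lay below every library of cells alone, which the rule for named genes requires and which is therefore no added support.

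The abundant nucleolar proteins showed the largest losses in CPM. Ncl, the nucleolar protein nucleolin, stood at 2317, 2379 and 2409 CPM in co-culture, against 2629, 2707 and 2649.6 CPM alone. Npm1, a nucleolar chaperone, stood at 2311, 2317 and 2278 CPM in co-culture, against 2578, 2647 and 2521 CPM alone. Both log2 fold changes were -0.17 (SE 0.023), with adjusted p of 1.48e-05 and 1.88e-05. Npm3, a relative of Npm1, was among the genes with the smallest p under 1.5-fold. It stood at 72.3, 78.3 and 77.8 CPM in co-culture, against 102, 104 and 101 CPM alone (-0.42, SE 0.037, adjusted p = 3.94e-08). Ptma, the acidic nuclear protein prothymosin alpha, averaged 1361 ± 11.4 CPM in co-culture and 1475 ± 20.2 CPM alone, and the ribosomal protein gene Rps2 2014 ± 54.2 CPM in co-culture and 2204 ± 26.3 CPM alone (SD, n = 3 each). Genes with near-identical processed copies, as Npm1, Ptma and Rps2 have, are uncertain, because the handling of shared reads is not given in the sources used here.

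Myc itself was lower. It stood at 182, 189.8 and 191 CPM in co-cultured cells, against 249, 253 and 247 CPM alone. The log2 fold change was -0.41 (SE 0.028, adjusted p = 5.76e-10).

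Counted again, the lower members of the ribosome biogenesis list were 42 to 45 under other scalings of counts, DESeq2 and the replicate block, 37 to 42 when 1 library was left out, and 23 on TPM values.

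Promoters of this group are shown because a MYC site, the E-box CACGTG, is a textbook feature of it. RefSeq promoter windows of GRCm38.p6, from 250 bases before to 50 bases after a gene's start, were matched by gene number for 10807 of the 14796 tested genes. Each window was searched on both strands, and sequences are printed on the gene's own strand. The E-box was in 9.96% of all windows, 8.81% of those of higher genes and 14.8% of those of lower genes, and in 10 of 51 windows of ribosome biogenesis genes. It was not alone in this: TNGCGTG, the element bound by the aryl hydrocarbon receptor, was in 7.89% of all windows, 11.5% of those of lower genes and also 10 of 51 windows of this list. Below are the 250 bases before the start of Nop2, an rRNA methyltransferase gene, at chr6:125131633-125131882 (+ strand), and of Atic, which catalyses the last steps of purine synthesis, at chr1:71556906-71557155 (+ strand). They are the called members of their lists with the smallest p that hold the motif in this stretch, and the E-box is in capitals.
Nop2: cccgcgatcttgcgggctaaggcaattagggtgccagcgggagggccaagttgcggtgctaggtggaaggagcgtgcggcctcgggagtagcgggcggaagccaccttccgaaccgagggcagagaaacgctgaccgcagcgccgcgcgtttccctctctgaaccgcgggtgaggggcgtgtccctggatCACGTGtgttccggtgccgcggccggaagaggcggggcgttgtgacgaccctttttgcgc
Atic: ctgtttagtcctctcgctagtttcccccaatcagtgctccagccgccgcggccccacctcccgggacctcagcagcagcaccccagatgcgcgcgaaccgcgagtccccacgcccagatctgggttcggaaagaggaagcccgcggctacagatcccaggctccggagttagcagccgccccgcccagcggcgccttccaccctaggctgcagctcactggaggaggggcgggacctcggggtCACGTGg
Nop2 stood at 299.4, 300.8 and 308 CPM in co-culture, against 330.3, 332 and 345 CPM alone (log2 fold change -0.15, adjusted p = 0.00044). A match is a description of letters and not a bound site.

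Nucleotide synthesis showed a narrower pattern. Of 32 tested purine and pyrimidine synthesis genes 14 (43.8%) fell and 2 (6.25%) rose, where 7.03% and 8.5% of all tested genes did. The list median was -0.04 and the median transcript length 2562 bases. Of the enzymes that build the purine ring Ppat, Gart, Pfas, Adsl and Atic fell, and Paics was not called. Gart, a trifunctional enzyme of that pathway, stood at 151, 156 and 159 CPM in co-culture, against 182, 179 and 184 CPM alone (log2 fold change -0.23, SE 0.029, adjusted p = 8.92e-06). Atic stood at 343, 332 and 338 CPM in co-culture, against 371, 381 and 379 CPM alone (-0.16, SE 0.025, adjusted p = 9.64e-05). Prps1, which makes the ribose donor for all nucleotides, stood at 25.7, 28.7 and 26.4 CPM in co-culture, against 34.3, 36.6 and 33.0 CPM alone (-0.36, SE 0.059, adjusted p = 0.000165). Adss, which commits the pathway to adenine nucleotides, went the other way, at 387, 374 and 363 CPM in co-culture and 331, 342 and 323 CPM alone (0.17, SE 0.028, adjusted p = 0.000179). On TPM values 7 members fell.

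Further steps of protein synthesis were lower by about as little. Of 23 tested cytosolic aminoacyl-tRNA synthetases, which charge tRNAs with amino acids, 11 (47.8%) fell and 0 rose. Among all tested genes 7.03% fell and 8.5% rose. The median of the synthetases was -0.09. Cars, for cysteine, stood at 175, 166 and 170.3 CPM in co-culture, against 199, 198 and 198 CPM alone (log2 fold change -0.22, adjusted p = 8.05e-06), and Iars, for isoleucine, averaged 203 ± 4.90 CPM in co-culture and 232 ± 2.13 CPM alone (SD, n = 3 each; -0.19, adjusted p = 3.49e-05). Sars and Gars, for serine and glycine, had log2 fold changes of -0.17 and -0.15. On TPM values 7 synthetases fell. The antioxidant response element TGACNNNGC was in 6 of 16 promoter windows of the synthetases and in 14.8% of all windows. The E-box and TNGCGTG were each in 4 of 16. The amino acid response element TGATGNAA, bound by ATF4, was in 5 of 16 and in 2.39% of all windows. It is shown in capitals in the 250 bases before the start of Tars, the synthetase for threonine, at chr15:11399659-11399908 (- strand), and of Gars, at chr6:55037751-55038000 (+ strand), in both on the strand opposite to the gene's.
Gars: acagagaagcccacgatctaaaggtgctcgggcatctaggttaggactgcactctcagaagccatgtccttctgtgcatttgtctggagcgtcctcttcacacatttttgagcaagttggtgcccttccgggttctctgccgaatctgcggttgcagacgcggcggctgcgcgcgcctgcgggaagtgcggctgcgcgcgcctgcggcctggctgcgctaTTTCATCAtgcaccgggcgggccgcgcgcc
Tars: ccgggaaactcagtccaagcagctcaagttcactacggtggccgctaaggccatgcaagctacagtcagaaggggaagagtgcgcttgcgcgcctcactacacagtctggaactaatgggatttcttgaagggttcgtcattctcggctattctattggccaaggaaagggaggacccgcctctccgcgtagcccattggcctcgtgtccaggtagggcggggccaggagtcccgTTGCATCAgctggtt
Tars stood at 377, 376 and 371 CPM in co-culture, against 399, 412 and 409.8 CPM alone (-0.12, adjusted p = 0.00161), and Gars at 559.6, 577 and 552 CPM in co-culture, against 623, 634 and 620.3 CPM alone.

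Translation factors and the mitochondrial ribosome followed with wider margins of doubt. Of 66 tested initiation and elongation factors 16 (24.2%) fell and 4 (6.06%) rose, with a median of -0.07. Their median level was 168 CPM, and of the fifth of tested genes with the highest level 17.3% fell. Eif5a, which helps ribosomes through hard peptide bonds, stood at 1476, 1438 and 1429.7 CPM in co-culture, against 1613, 1602 and 1581 CPM alone (log2 fold change -0.14, SE 0.023, adjusted p = 0.000106). Pabpc1, the poly(A)-binding protein, averaged 3070.3 ± 9.53 CPM in co-culture and 3267 ± 57.9 CPM alone (SD, n = 3 each; -0.09, adjusted p = 0.00556; not called without replicate 1 of cells alone). Eef1d, an exchange factor of elongation, had a log2 fold change of -0.14, while Eif4g3, a scaffold of initiation, and Eif2ak3, the kinase PERK that slows initiation under endoplasmic reticulum stress, rose by 0.21 and 0.25. The count of lower factors was 9, 8, 4 and 7 without replicate 1 of co-culture and without replicates 1, 2 and 3 of cells alone, and 1 on TPM values. Of 78 tested mitochondrial ribosomal protein genes 13 (16.7%) fell and 1 (1.28%) rose, where 7.03% and 8.5% of all tested genes did. The median was -0.09 and the median transcript length 1128 bases. Mrpl19, Mrpl15, Mrps9 and Mrpl21 had log2 fold changes of -0.18, -0.17, -0.17 and -0.18. Without replicate 2 of cells alone 7 fell, and on TPM values also 7.

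Cytosolic and mitochondrial chaperones moved both ways with more falls. Of 33 tested, 12 (36.4%) fell and 3 (9.09%) rose, where 7.03% and 8.5% of all tested genes did. The median was -0.06. The mitochondrial chaperonin pair Hspd1 and Hspe1, which share a promoter region on chromosome 1, fell together. Hspe1 stood at 261, 271 and 242 CPM in co-culture, against 319, 322 and 295 CPM alone (log2 fold change -0.28, SE 0.039, adjusted p = 0.000175), and Hspd1 at 1626, 1661 and 1658 CPM in co-culture, against 1753, 1818 and 1794 CPM alone (-0.12, SE 0.023, adjusted p = 0.000912). Fkbp4, a partner of HSP90 in steroid receptor complexes, had -0.19 (SE 0.024, adjusted p = 7.7e-06) and the HSP90 gene Hsp90ab1 -0.10 (SE 0.022, adjusted p = 0.00374). Hspa4l, an HSP110-type exchange factor, rose by 0.28 (SE 0.040, adjusted p = 2.78e-05), and Lonp1, the matrix protease, by 0.16 (SE 0.027, adjusted p = 0.000288). On TPM values 6 chaperone genes fell and 1 rose.

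**Figure D4:**
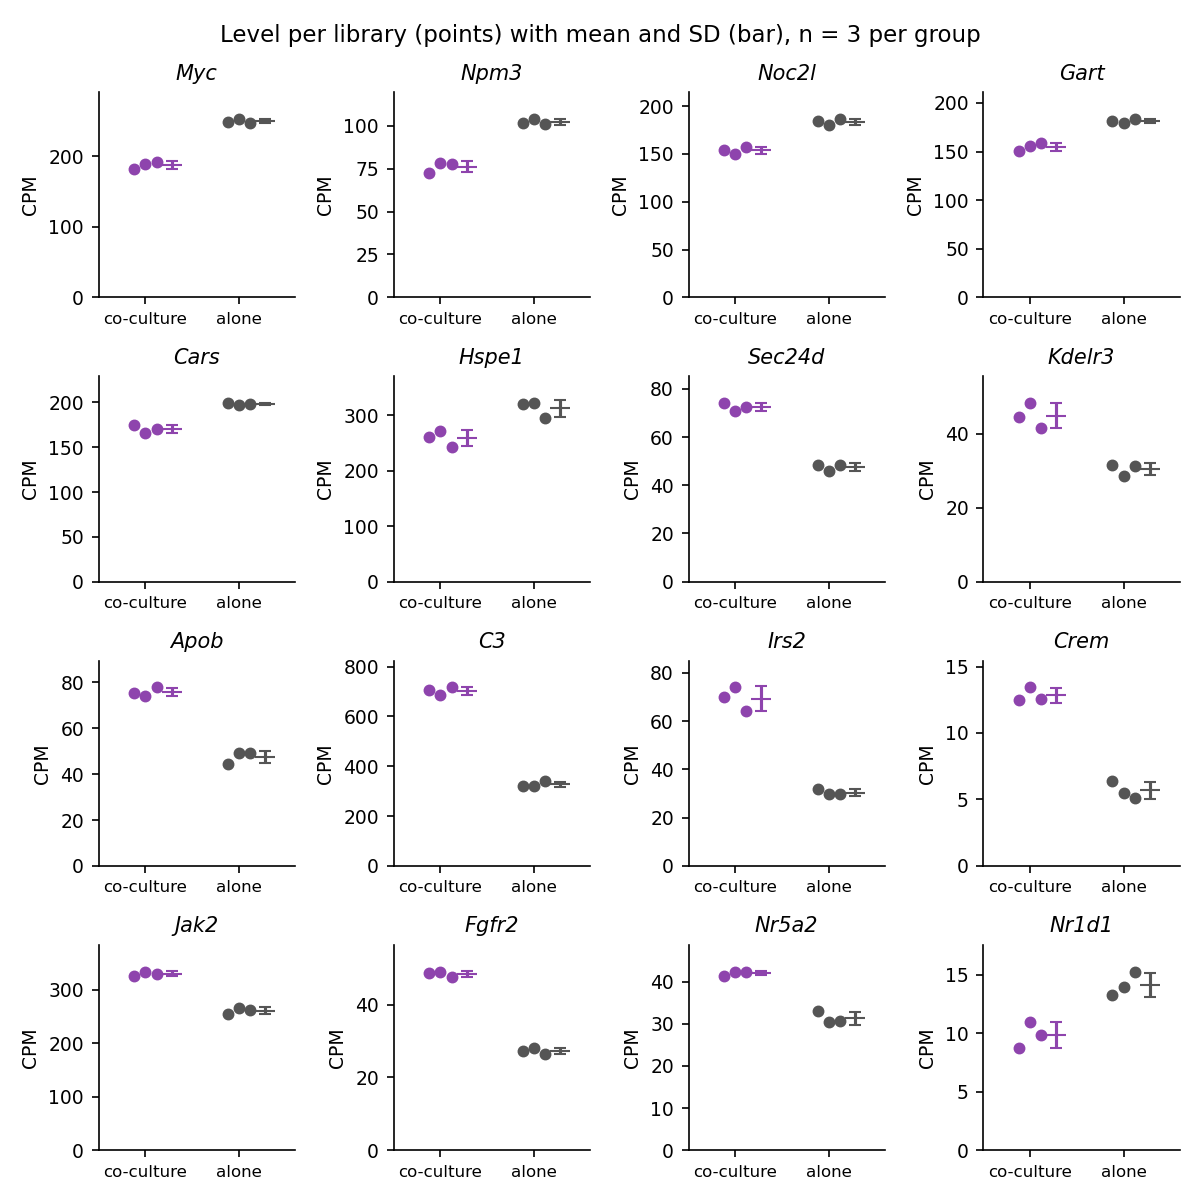
Level in CPM of 16 named genes in each co-cultured library (left) and each library of cells alone (right), with mean and SD beside the points (n = 3 each). Myc, Npm3, Noc2l, Gart, Cars, Hspe1 and Nr1d1 lie lower in co-culture and the other 9 higher. None overlap, which the rule for named genes requires. Among all tested genes 15.9% lay above and 14.8% below without overlap.

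Genes of the secretory route were higher. Of 60 tested members of the translocation and COPII/COPI transport list 27 (45.0%) rose and 0 fell, where 8.5% of all tested genes rose. The median was 0.10 (median transcript length 2909.5 bases). The members had a median level of 127 CPM, and of the fifth of tested genes with the highest level 15.8% rose. Summed, they took 9095 to 9337 CPM in co-cultured libraries and 8595 to 8678 CPM alone. Sec24d, a cargo adaptor of the COPII coat that carries proteins out of the endoplasmic reticulum, stood at 74.1, 71.0 and 72.4 CPM in co-culture, against 48.5, 45.9 and 48.3 CPM alone (log2 fold change 0.61, SE 0.041, adjusted p = 6.34e-10). Kdelr3, a receptor that returns escaped residents to the endoplasmic reticulum, stood at 44.7, 48.4 and 41.7 CPM in co-culture, against 31.7, 28.5 and 31.3 CPM alone (0.56, SE 0.058, adjusted p = 5.58e-07). These 2 were far above the rest of the list.

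The other called members moved by at most 0.22. Surf4, a cargo receptor for lipoproteins among others, averaged 224 ± 7.73 CPM in co-culture and 191 ± 3.52 CPM alone, and Sec61a1, the channel through which new proteins enter, 452 ± 5.96 CPM in co-culture and 399.9 ± 7.61 CPM alone (SD, n = 3 each; log2 fold changes 0.22 and 0.17, adjusted p = 9.48e-06 and 3.64e-05). P4hb, a disulphide isomerase of the endoplasmic reticulum, gained among the most CPM, with 1297, 1265 and 1224 CPM in co-culture and 1056, 1051 and 1074 CPM alone (0.25, SE 0.025, adjusted p = 2.02e-07). Between 20 and 34 members rose when 1 library was left out, and 22 on TPM values. Without replicate 3 of co-culture 2 members fell.

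An element of the ATF6 type, TGACGTGG, was in 5 of 48 promoter windows of this list and in 0.79% of all windows. Its core ACGTG, which the E-box also contains, was in 31 of 48 and in 25.2%. The element is in capitals in the 250 bases before the start of Sec24d, at chr3:123267246-123267495 (+ strand), and of Kdelr3, at chr15:79516158-79516407 (+ strand), where it lies on the opposite strand. These are the called members with the smallest p that hold it.
Sec24d: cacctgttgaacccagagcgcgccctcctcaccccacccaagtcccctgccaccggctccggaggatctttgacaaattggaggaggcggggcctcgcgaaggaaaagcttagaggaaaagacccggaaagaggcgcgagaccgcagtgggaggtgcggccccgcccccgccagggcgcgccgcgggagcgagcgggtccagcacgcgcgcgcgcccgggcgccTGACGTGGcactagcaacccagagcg
Kdelr3: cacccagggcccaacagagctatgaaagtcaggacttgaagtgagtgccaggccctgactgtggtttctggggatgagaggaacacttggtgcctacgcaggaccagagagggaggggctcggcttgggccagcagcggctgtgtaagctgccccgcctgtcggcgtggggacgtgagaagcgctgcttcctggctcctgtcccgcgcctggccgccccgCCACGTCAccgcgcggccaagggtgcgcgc

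N-glycosylation, the attachment and trimming of sugars on secreted proteins, was higher in part. Of 55 tested members 11 (20%) rose and 1 (1.82%) fell, where 8.5% and 7.03% of all tested genes did. The median was 0.04. Gfpt1, the entry enzyme of the pathway that makes the sugar donor, stood at 310.1, 303 and 301 CPM in co-culture, against 221, 225 and 229 CPM alone (log2 fold change 0.44, SE 0.026, adjusted p = 8.45e-11). Man1a, a Golgi mannosidase, stood at 33.6, 29.9 and 28.6 CPM in co-culture, against 20.4, 22.1 and 19.6 CPM alone (0.56, SE 0.068, adjusted p = 4.39e-06). St3gal1, a sialyltransferase, rose by 0.44, and Ganab, the subunit of glucosidase II that trims glucose, by 0.15. Of 31 tested genes for heparan sulphate proteoglycans and their enzymes 5 (16.1%) rose and 0 fell. Their median was 0.05 (-0.0038 without replicate 3 of co-culture). Gpc1, a membrane-anchored core protein, stood at 244, 239.6 and 241 CPM in co-culture, against 154, 155 and 161 CPM alone (0.62, SE 0.028, adjusted p = 7.21e-13), and Sdc4, Hs6st1 and Agrn rose by 0.38, 0.27 and 0.19.

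Several cargoes of that route were higher too. Of the 13 tested hepatoma and hepatocyte secretory markers 8 (61.5%) rose and 0 fell, where 8.5% and 7.03% of all tested genes did. Among the largest gains in CPM, Afp stood at 2009, 1980.1 and 1863 CPM in co-culture, against 1534, 1531 and 1589 CPM alone (log2 fold change 0.33, adjusted p = 1.2e-08), and Alb at 2414, 2329 and 2210.0 CPM in co-culture, against 2015, 2041 and 2066 CPM alone (0.18, adjusted p = 4.43e-05). Selenop, the selenium carrier of plasma, averaged 469 ± 14.7 CPM in co-culture and 337 ± 6.58 CPM alone, and Enpp2, the secreted enzyme autotaxin, 1084 ± 11.1 CPM in co-culture and 824 ± 6.98 CPM alone (SD, n = 3 each). Of 31 tested complement and coagulation genes 10 (32.3%) rose and 0 fell. C3 was among them, with 705, 685 and 717 CPM in co-culture and 322, 322 and 339 CPM alone (1.099, SE 0.028, adjusted p = 2.41e-17). So were Serpind1, the thrombin inhibitor heparin cofactor II (1.18), and Cfb (0.52). Of 14 tested apolipoprotein and lipoprotein assembly genes 3 (21.4%) rose and 2 (14.3%) fell. Apob, the core protein of very low density lipoprotein, rose to 75.4, 74.0 and 77.8 CPM in co-culture, against 44.6, 49.0 and 49.1 CPM alone. Abca1 rose by 0.21, and Apoe had -0.16.

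Targets of cAMP signalling, in which the kinase PKA switches on the factor CREB, were higher in part. Of 20 tested 11 (55%) rose and 1 (5%) fell, where 8.5% and 7.03% of all tested genes did. The median was 0.33. Crem, a CREB family gene with an inducible repressor form, stood at 12.5, 13.4 and 12.5 CPM in co-culture, against 6.39, 5.51 and 5.12 CPM alone (log2 fold change 1.18, SE 0.098, adjusted p = 1.65e-08). Stc1, a secreted glycoprotein, stood at 158, 155 and 149.6 CPM in co-culture, against 87.5, 83.2 and 81.6 CPM alone (0.87, SE 0.035, adjusted p = 8.99e-14). Sik1, a kinase that restrains CREB coactivators, stood at 72.9, 77.1 and 76.6 CPM in co-culture, against 52.0, 50.9 and 53.0 CPM alone (0.54, SE 0.040, adjusted p = 3.14e-09). Nr4a1, an orphan receptor induced by many signals, rose by 0.79. The palindromic element TGACGTCA was in 3.07% of all promoter windows, in 3.07% of those of higher genes and in 1 of 14 windows of this list.

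Irs2, which is in none of the lists, and a few clock genes were called. Irs2, the insulin receptor adaptor, rose to 69.9, 74.0 and 64.0 CPM in co-culture, against 31.9, 29.6 and 29.6 CPM alone (log2 fold change 1.19, SE 0.053, adjusted p = 7.21e-13). Of 22 tested circadian clock genes and output factors 4 (18.2%) rose and 2 (9.09%) fell, where 8.5% and 7.03% of all tested genes did. The median was 0.03 and became -0.03 without replicate 3 of cells alone. Per1, a repressor of the clock, stood at 21.3, 21.1 and 17.5 CPM in co-culture, against 12.2, 11.7 and 10.8 CPM alone (0.79, SE 0.084, adjusted p = 7.65e-07), and Bhlhe40, another repressor, rose by 0.40. Nr1d1 and Nr1d2, the REV-ERB receptors that repress Bmal1, fell by 0.52 and 0.35 on the log2 scale. Nr1d1 stood at 8.73, 10.9 and 9.87 CPM in co-culture, against 13.2, 13.9 and 15.3 CPM alone. All cultures were taken at a single time, so phase cannot be read from these levels.

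Glucocorticoid receptor targets share Per1 with the cAMP and clock lists. Of 20 tested 7 (35%) rose and 1 (5%) fell, where 8.5% and 7.03% of all tested genes did. The median was 0.24. Dusp1, a phosphatase that switches off MAP kinases, stood at 24.0, 23.4 and 21.1 CPM in co-culture, against 12.9, 11.9 and 11.9 CPM alone (log2 fold change 0.90, SE 0.074, adjusted p = 1.46e-08). Fkbp5, a chaperone cofactor of the receptor, averaged 125 ± 3.47 CPM in co-culture and 102 ± 1.51 CPM alone (SD, n = 3 each; 0.29, adjusted p = 1.73e-06), and Errfi1, an inhibitor of the EGF receptor, rose by 0.24. Of 30 tested genes of EGF receptor and MAP kinase feedback 10 (33.3%) rose and 4 (13.3%) fell, with a median of 0.07. They held Dusp1, Ier3, an early response gene (0.88), and the ligand Tgfa, which stood at 283, 283 and 288 CPM in co-culture, against 198, 201 and 210.0 CPM alone (0.49, SE 0.028, adjusted p = 4.24e-11).

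Components of interleukin-6 family signalling rose a little. Of 30 tested receptors, JAK-STAT3 genes and targets 10 (33.3%) rose and 0 fell, where 8.5% and 7.03% of all tested genes did. The median was 0.12. Jak2, a kinase bound to cytokine receptors, stood at 325, 335 and 330.3 CPM in co-culture, against 255, 267 and 262 CPM alone (log2 fold change 0.33, SE 0.026, adjusted p = 6.93e-09). Socs3, the feedback inhibitor that STAT3 induces, stood at 36.2, 33.0 and 27.9 CPM in co-culture, against 21.3, 20.1 and 21.3 CPM alone (0.63, SE 0.076, adjusted p = 4.89e-06). Stat3, which carries the signal to the nucleus, rose by 0.14 and was not called without replicate 1 of cells alone or on TPM values. Without replicates 1 and 2 of cells alone the list had 5 and 6 higher members, and on TPM values 4.

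Cell surface receptors for growth factors were mostly higher where they were called. Of 55 tested cytokine and growth factor receptors 13 (23.6%) rose and 1 (1.82%) fell, where 8.5% and 7.03% of all tested genes did. The median was 0.0046. Fgfr2, a fibroblast growth factor receptor, stood at 48.6, 49.1 and 47.7 CPM in co-culture, against 27.2, 28.2 and 26.5 CPM alone (log2 fold change 0.83, SE 0.049, adjusted p = 6.93e-11). Tgfbr1, the type I receptor for TGF-beta, stood at 114, 117 and 111 CPM in co-culture, against 84.96, 88.0 and 83.7 CPM alone (0.41, SE 0.035, adjusted p = 1.96e-08), and Met, the receptor for hepatocyte growth factor, rose by 0.30. Calcrl, the receptor that pairs with RAMP proteins to bind adrenomedullin, was the 1 that fell, with 63.8, 58.2 and 65.9 CPM in co-culture and 79.4, 81.8 and 76.4 CPM alone (-0.34, SE 0.045, adjusted p = 1.47e-05).

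Secreted growth factors were split evenly, with 12 of 59 tested (20.3%) higher and 12 (20.3%) lower and a median of 0.0070. Among all tested genes 8.5% were higher and 7.03% lower. By smallest p the list of growth factors named Tgfa, Il11 and the falls of Pdgfb and Gas6. Pdgfb, a platelet-derived growth factor chain, stood at 18.1, 19.2 and 21.4 CPM in co-culture, against 32.8, 31.2 and 30.0 CPM alone (log2 fold change -0.67, SE 0.067, adjusted p = 2.55e-07). Nrg1, a ligand of the ERBB receptors, averaged 169.5 ± 4.03 CPM in co-culture and 137 ± 2.35 CPM alone (SD, n = 3 each; 0.30, adjusted p = 2.54e-07; not called on TPM values). Of 22 tested YAP/TEAD targets 8 (36.4%) rose and 2 (9.09%) fell, with a median of 0.0096. Igfbp3, a carrier of insulin-like growth factors, Ccn2 and Ajuba rose by 0.32, 0.39 and 0.18, and Myof had -0.12. The count of higher YAP/TEAD targets was 5 without replicate 2 of co-culture, and 5 without replicate 1 or 2 of cells alone, and 4 on TPM values.

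Liver transcription factors moved within a list that was split. Of 31 tested nuclear receptors 4 (12.9%) rose and 4 (12.9%) fell, where 8.5% and 7.03% of all tested genes did. The median was 0.0035, and it was negative in each fit without 1 library (-0.06 without replicate 3 of cells alone). Nr5a2, a regulator of bile acid and cholesterol genes, stood at 41.5, 42.4 and 42.4 CPM in co-culture, against 33.0, 30.3 and 30.6 CPM alone (log2 fold change 0.43, SE 0.051, adjusted p = 2.9e-06). Hnf4a, a master regulator of hepatocyte genes, stood at 83.9, 82.7 and 79.4 CPM in co-culture, against 65.2, 67.1 and 67.5 CPM alone (0.30, SE 0.038, adjusted p = 7.55e-06). Esr1, the oestrogen receptor alpha, fell to 7.44, 7.39 and 6.37 CPM in co-culture, against 10.6, 9.67 and 9.82 CPM alone (-0.51, adjusted p = 0.000875). Of 5 tested mature hepatocyte markers 2 rose and 1 fell, with a median of -0.12; 10 of the listed markers had no count in any of the 6 libraries.

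Most called genes of the bile acid, detoxification and aryl hydrocarbon receptor lists were higher in co-culture. Of 11 tested bile acid synthesis and transport genes 5 (45.5%) rose and 0 fell, where 8.5% and 7.03% of all tested genes did. The median was 0.20. Cyp7b1, the hydroxylase of the alternative route to bile acids, stood at 22.6, 21.96 and 17.7 CPM in co-culture, against 12.9, 14.7 and 13.3 CPM alone (log2 fold change 0.60, SE 0.088, adjusted p = 4.61e-05). The export pumps Abcc3 and Abcc4 and the receptor Fgfr4 rose by 0.20, 0.23 and 0.26. Of 56 tested cytochrome P450 and conjugating enzymes 10 (17.9%) rose and 2 (3.57%) fell, with a median of 0.08. Among the 2 is Nat10, which the symbol pattern took in although it acts on RNA. The glutathione transferases Gsta3 and Gsto1 rose by 0.97 and 0.36. Of 10 tested aryl hydrocarbon receptor targets 9 rose and 1 fell, with a median of 0.90, among them Cyp1a1, at 391 ± 21.8 CPM in co-culture and 96.9 ± 3.65 CPM alone (SD, n = 3 each), Nqo1 (0.88), Tiparp (0.40) and Nfe2l2 (0.25). The element TNGCGTG, bound by that receptor, was in 0 of the 7 promoter windows of this list. These windows run from 250 bases before to 50 bases after the start. Elements farther away were not searched, so the count does not bear on the receptor's part, which was not tested.

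Carbon and lipid metabolism showed single genes more than lists. Of all tested genes 8.5% rose and 7.03% fell. Of 35 tested genes of the tricarboxylic acid cycle and pyruvate entry 4 (11.4%) rose and 4 (11.4%) fell, with a median of -0.02. Their median level was 131 CPM, and of the fifth of tested genes with the highest level 15.8% rose and 17.3% fell. Fh1, fumarate hydratase, had the largest change of this list, at 172, 172 and 152 CPM in co-culture and 113, 115 and 120.4 CPM alone (log2 fold change 0.51, SE 0.042, adjusted p = 7.41e-08). Mpc1, the mitochondrial pyruvate carrier, rose by 0.24 (not called without replicate 2 of co-culture), Mdh1 by 0.13, and Acly, which exports citrate carbon to lipid synthesis, had -0.11. Of 19 tested gluconeogenesis and glycogen genes 5 (26.3%) rose and 1 (5.26%) fell, with a median of 0.10. Ugp2 and Pgm2, on the way to glycogen, rose by 0.11 and 0.20, and Pck2 had -0.22. On TPM values 2 rose. The 5 became 3 without replicate 1 of co-culture or replicate 1 or 3 of cells alone, and 2 without replicate 2 of cells alone. Of 30 tested sphingolipid and glycerophospholipid genes 4 (13.3%) rose and 2 (6.67%) fell, with a median of 0.02. Etnk1, an ethanolamine kinase, rose by 0.39, Lpin2 by 0.35 and Sgms2 by 0.17, and Ugcg had -0.12. Of 23 tested fatty acid oxidation and lipid droplet genes 2 (8.70%) rose and 1 (4.35%) fell, with a median of 0.05. Abcd2, a peroxisomal transporter, fell to 13.6, 9.91 and 11.4 CPM in co-culture, against 16.5, 16.1 and 18.6 CPM alone. Cpt1a had 0.17 and was not called without replicate 1 of either group.

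Solute carriers were called more often than all tested genes in these libraries, and ion channels, whose level was lower, were not. Of 206 tested solute carriers 35 (17.0%) rose and 24 (11.7%) fell, where 8.5% and 7.03% of all genes did, with a median of 0.05. Slc22a23, an orphan carrier, stood at 50.9, 48.9 and 48.6 CPM in co-culture, against 30.7, 30.6 and 32.4 CPM alone (log2 fold change 0.66, SE 0.048, adjusted p = 2.07e-09). Slc7a2, a carrier of arginine, rose by 0.99, while Slc7a5, which imports large neutral amino acids, stood at 104, 107 and 109.8 CPM in co-culture and 133, 137 and 134 CPM alone (-0.33, SE 0.033, adjusted p = 2.25e-07). On TPM values 18 rose and 8 fell. Of 74 tested ion channel genes 7 (9.46%) rose and 1 (1.35%) fell, with a median of 0.05. Scn8a, a voltage-gated sodium channel of neurons, stood at 60.9, 58.3 and 56.5 CPM in co-culture, against 40.1, 38.04 and 37.9 CPM alone (0.60, SE 0.045, adjusted p = 4.13e-09; not called on TPM values), and Kcnk2, a two-pore potassium channel, and Ano6, a lipid scramblase, rose by 0.51 and 0.14, while P2rx4, an ATP-gated channel, had -0.23 (not called without replicate 3 of cells alone or on TPM values).

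Genes best known from neurons and from skin were among the larger rises. Of 33 tested neuronal and synaptic genes 8 (24.2%) rose and 1 (3.03%) fell, where 8.5% and 7.03% of all tested genes did. The median was 0.15, and 5 rose without replicate 2 of cells alone and on TPM values. Syt13, a member of the synaptotagmin family of membrane traffic proteins, stood at 65.1, 65.8 and 59.9 CPM in co-culture, against 25.5, 26.6 and 25.8 CPM alone (log2 fold change 1.29, SE 0.049, adjusted p = 6.32e-14). Dclk1, a microtubule-linked kinase, Slc17a6, a glutamate carrier of vesicles, and Cntnap5a, an adhesion protein, are in the same list. Krt33b, a hair keratin, stood at 13.4, 14.8 and 10.5 CPM in co-culture, against 4.58, 5.22 and 4.63 CPM alone (1.42, SE 0.117, adjusted p = 1.46e-08). Ppl, a plakin of the epidermal envelope and desmosomes, stood at 47.7, 45.6 and 41.2 CPM in co-culture, against 20.03, 20.2 and 21.0 CPM alone (1.13, SE 0.059, adjusted p = 1.08e-11).

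Of 48 tested keratin and epithelial junction genes 10 (20.8%) rose and 5 (10.4%) fell, where 8.5% and 7.03% of all tested genes did. The median was 0.03. Ctnnb1, encoding beta-catenin, stood at 519.8, 526 and 515 CPM in co-culture, against 421, 417 and 428 CPM alone (log2 fold change 0.30, SE 0.024, adjusted p = 1.08e-08), and Cdh17, an intestinal and liver cadherin, rose by 0.28. Jup, its relative plakoglobin, fell to 181, 176 and 179 CPM in co-culture, against 218, 211 and 219 CPM alone (-0.27, SE 0.028, adjusted p = 3.41e-07; not called on TPM values). Beta-catenin and plakoglobin thus moved in opposite directions. Without replicate 3 of cells alone 3 members of the keratin and junction list fell, and on TPM values 2. Of 41 tested actin and SRF genes 7 (17.1%) rose and 7 (17.1%) fell, with a median of -0.0066. Their median level was 214 CPM, and of the fifth of tested genes with the highest level 15.8% rose and 17.3% fell. Actn1, Cald1 and Ezr rose by 0.34, 0.21 and 0.25, and Pdlim5 had -0.23. Outside the list Dstn, which severs actin filaments, stood at 633, 636 and 605 CPM in co-culture and 449, 463 and 441 CPM alone. Itga3, an integrin chain that binds laminin, gained among the most CPM, with 952, 956 and 975 CPM in co-culture and 704, 691 and 718 CPM alone (0.45, SE 0.024, adjusted p = 1.79e-11).

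The remaining large rises span unrelated roles. Inpp5j, a phosphoinositide phosphatase, averaged 22.8 ± 0.888 CPM in co-culture and 10.6 ± 0.392 CPM alone; Dcdc2a, a doublecortin-domain protein of cilia, 13.2 ± 0.865 CPM in co-culture and 6.13 ± 0.254 CPM alone (SD, n = 3 each). Ihh, the Indian hedgehog ligand, stood at 47.5, 43.6 and 35.1 CPM in co-culture, against 21.1, 17.2 and 21.2 CPM alone (log2 fold change 1.08, SE 0.129, adjusted p = 0.0013). Gli1, a target and effector of hedgehog signalling, stood at 5.47, 6.00 and 5.65 CPM in co-culture, against 8.31, 8.12 and 7.97 CPM alone (-0.51, SE 0.101, adjusted p = 0.00117), so ligand and target were called in opposite directions. Tox, a nuclear factor best known from T cells, and Crisp1, a secreted protein best known from the epididymis, had log2 fold changes of 1.34 and 1.01. D17H6S56E-5 rose by 0.45 (SE 0.026, adjusted p = 5.13e-11).

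The further falls given here were each smaller than 1.5-fold, while 28 lower genes differed by 1.5- to 2-fold and 13 by 2-fold or more. Gpnmb, a membrane glycoprotein, stood at 93.7, 92.7 and 97.4 CPM in co-culture, against 133, 137 and 133 CPM alone (log2 fold change -0.51, SE 0.033, adjusted p = 2.92e-10). Pcsk6, a proprotein convertase, stood at 48.3, 47.2 and 49.2 CPM in co-culture, against 72.5, 72.7 and 70.7 CPM alone (-0.58, SE 0.040, adjusted p = 8.49e-10). Ptp4a3, a phosphatase, stood at 32.8, 32.1 and 32.1 CPM in co-culture, against 48.8, 46.7 and 46.2 CPM alone (-0.55, SE 0.047, adjusted p = 3.22e-08). The transcription factor Nfix, the pseudokinase Trib3 and Apela, a ligand of the apelin receptor, had -0.51, -0.55 and -0.57, the kinase Stk26 and the zinc finger gene Zfp296 each -0.52, Arhgap39 -0.54 and Lratd2 -0.44.

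The other lists held few called members. Of 41 tested autophagy and lysosome genes 9 rose and 1 fell, with a median of 0.0040; the mitophagy receptor Bnip3 rose to 54.8, 55.0 and 45.4 CPM in co-culture, against 30.6, 27.1 and 29.2 CPM alone, Bnip3l and Optn rose by 0.20 and 0.25 and Nbr1 by 0.11. Without replicates 1 and 2 of co-culture and replicates 1 and 2 of cells alone 5, 4, 3 and 5 members of the autophagy and lysosome list were higher. Of 37 tested BCL2 family and caspase genes 6 (16.2%) rose and 2 (5.41%) fell, with a median of 0.05, among them Gsdmd (0.26), Birc3 (0.24), Cflar (0.23) and Pmaip1 (0.16). Of 20 tested small nucleolar RNA host genes and nuclear noncoding RNAs 4 (20%) fell and 0 rose, with a median of -0.14. Zfas1 fell to 46.8, 48.2 and 48.0 CPM in co-culture, against 52.9, 54.6 and 53.1 CPM alone. Without replicates 1 and 2 of cells alone 1 and 2 members fell. Of 32 tested SR proteins and heterogeneous nuclear ribonucleoproteins 5 (15.6%) fell and 0 rose, with a median of -0.05. Their median level was 222 CPM, and of the fifth of tested genes with the highest level 17.3% fell. Without replicates 1 and 2 of co-culture and replicates 2 and 3 of cells alone 2, 3, 0 and 2 of them fell, and 0 on TPM values.

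Of 71 tested chromatin-modifying enzymes 5 (7.04%) rose and 3 (4.23%) fell (median -0.01), led by the DNA demethylase Tet2 at 31.5, 31.6 and 31.7 CPM in co-culture and 24.7, 25.4 and 24.6 CPM alone. Without replicate 1 of co-culture or replicate 2 of cells alone 3 rose. Of 59 tested DNA repair genes 3 (5.08%) rose and 4 (6.78%) fell (median -0.02), with Xrcc5, the KU80 subunit, at 61.6, 63.2 and 63.8 CPM in co-culture and 75.9, 74.2 and 73.3 CPM alone. Of 325 tested genes with a Zfp symbol 10 (3.08%) rose and 6 (1.85%) fell, smaller shares than the 8.5% and 7.03% of all tested genes (median -0.0060), with Zfp703, Zfp52 and Zfp9 higher by 0.35, 0.49 and 0.43; 10 fell without replicate 1 or 3 of co-culture and 3 without replicate 3 of cells alone. Of 48 tested proteasome subunits 1 (2.08%) rose and 2 (4.17%) fell (median -0.02). Of 13 histone genes 2 (15.4%) rose and 1 (7.69%) fell (-0.02), and of 15 mitochondrially encoded genes 1 (6.67%) and 0 (-0.0089). Under TPM values the medians of the proteasome, Zfp, histone, chromatin, mitochondrially encoded, DNA repair, apolipoprotein and actin lists turned positive and that of nuclear receptors negative. The log2 fold changes of all tested genes also moved up by a median of 0.0189 in the fit on log2(TPM + 1), so small changes of sign are not particular to these lists.

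The co-culture effect in Hepa1-6 cells was set against that in LSECs by an interaction test over the 12 libraries. Of 17346 genes tested 408 (2.35%) differed, 165 with a more positive effect in Hepa1-6 cells and 243 with a more negative one. Same-numbered LSEC libraries deviated together from their group means (correlations 0.85, 0.59 and 0.63), so the fit with replicate number as a block is given beside it, with 1384 and 1624 genes. Of the 201 genes named by the rule, 35 differed between the cells without the block and 106 with it. Of the 2297 genes called in Hepa1-6 cells and tested here, 163 (7.10%) differed without the block and 832 (36.2%) with it. Without replicate 1 of LSECs alone 337 and 389 genes differed, and without a Hepa1-6 library between 82 and 98 and between 134 and 145.

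**Figure D5:**
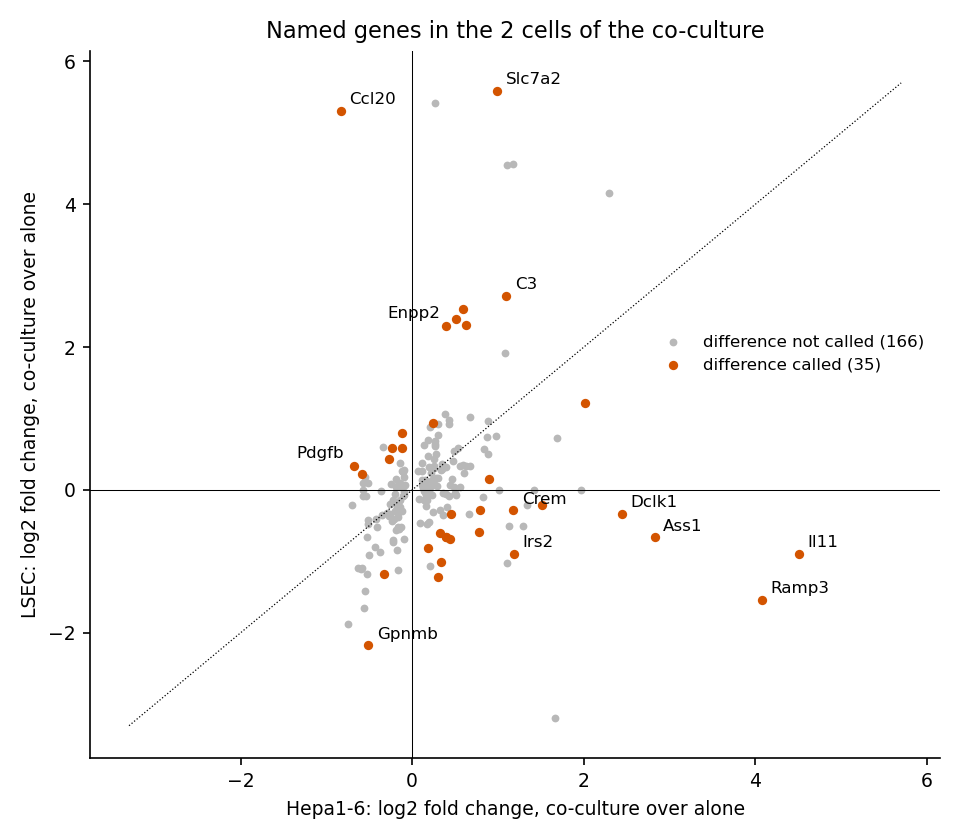
Each point is 1 of 201 named genes, placed by its log2 fold change of co-culture over alone in Hepa1-6 cells (horizontal) and in LSECs (vertical); orange points are the 35 whose difference was called, grey points the other 166, and the dotted line marks equal effects. Irs2, Crem and Dclk1 lie right of the line and C3, Enpp2 and Ccl20 above it.

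The genes that differed fell on both sides. Irs2, Crem and Per1 were higher in co-cultured Hepa1-6 cells and had log2 fold changes of -0.89, -0.29 and -0.59 in LSECs; the differences, each tested by edgeR, were 2.08 for Irs2 (adjusted p = 0.0254), 1.46 for Crem (adjusted p = 0.000732) and 1.38 for Per1 (adjusted p = 0.0185). C3, Socs3 and Enpp2 had larger positive values in LSECs, 2.72, 2.32 and 2.29, and their differences were -1.62, -1.69 and -1.89 (adjusted p = 0.00574, 0.00112 and 0.0016). In LSECs Enpp2 averaged only 2.05 CPM in co-culture and 0.413 CPM alone, against 1084 CPM and 824 CPM in Hepa1-6 cells, so the size of its LSEC value is uncertain. Myc had -0.52 in LSECs, and its difference was not called (adjusted p = 0.92). Ncl, Npm1, Nop56 and Fbl had -0.30, -0.32, -0.29 and -0.40 in LSECs, and no difference was called for any of them without the block. A p that misses the threshold does not show that the cells responded alike.

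RNA carried over from LSECs was looked for directly. Of 53 genes at 100 CPM or more in every LSEC library and with no count in Hepa1-6 cells alone, 44 had no count in co-cultured Hepa1-6 libraries either. The other 9 gave 10, 10 and 15 counts in the 3 libraries, which is 0.0013%, 0.0011% and 0.0015% of the level of the 53 genes in co-cultured LSECs. Few markers of other cells were expressed at a testable level. Of the sinusoidal endothelial markers 7 were tested and 2 rose, Stab1 and Flt4, with a median of -0.0025, and the listed genes summed to 158 to 166 CPM in co-culture and 139 to 154 CPM alone. Of the pan-endothelial markers 8 were tested and 1, Ptprb, fell (median 0.07), summing to 49.0 to 51.3 CPM in co-culture and 47.8 to 49.2 CPM alone. Of the macrophage and Kupffer cell markers 5 were tested and 2 rose, Cd14 and Mpeg1 (median 0.41), summing to 37.7 to 38.6 CPM in co-culture and 27.5 to 29.7 CPM alone. Of 6 tested stellate cell and fibroblast markers none was called (median -0.0066), nor was the 1 tested of the T, NK and B cell list or the 1 of the neutrophil list. Of 8 tested cholangiocyte markers 2 rose and 2 fell (median -0.09). Stab1, Flt4, Ptprb, Cd14 and Mpeg1 were named after their values were seen, and all 5 were also present in Hepa1-6 cells alone. The part of these cells in the results was not tested.

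Whether transcripts of 1 gene moved by unequal factors was tested on the deposited transcript counts. Of 7559 genes with at least 2 tested transcripts 130 (1.72%) were called. Transcript counts scattered widely between libraries of a group, with a median dispersion of 0.456 over 32295 transcripts. The count ran from 42 with the replicate block to 218 without replicate 3 of co-culture, and no gene is named from this test.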

How the data were processed

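Stranded poly(A) libraries (TruSeq, paired-end) were sequenced, and per the submitters' processing notes the reads were aligned with HISAT2 to mm10 and quantified with StringTie. The authors deposited estimated counts per gene and per transcript, which were rounded to whole numbers here, and TPM values, which are scaled to transcript length and library total. Transcript lengths are as the authors deposited them. How reads shared between copies or overlapping genes were assigned is not given in the sources used here, so paralogs and overlapping genes are uncertain.

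Gene counts were tested with edgeR 4.0.16 in R 4.3.3 (filterByExpr, TMM, robust quasi-likelihood F test, Benjamini-Hochberg over all 14796 genes tested). CPM are on a TMM scale of all 12 libraries, and SEs were derived from the F statistic. The difference between cells was an interaction term over 12 libraries, and transcript usage was tested with diffSpliceDGE. Hepa1-6 totals of 32761492 to 43525113 put 3 counts at 0.0689 to 0.0916 CPM. The table held 45777 genes, of which 45679 had their gene number in RefSeq GRCm38.p6 and 44387 the same start, and promoter windows come from RefSeq for that build. In all, 17 motifs were searched on both strands in 300-base windows, and only some of them are reported here. Scripts were tested on simulated data.

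Alternatives were RLE and upper-quartile scaling, no filter, a mean of 5 CPM, DESeq2 1.42.0, limma 3.58.1 on log2(TPM + 1) and log2(TPM + 0.1), where fold changes of low genes are understated, a 1.2-fold threshold, all 12 libraries, the replicate number as a block, and leaving out each library. Same-numbered Hepa1-6 libraries correlated at 0.066, -0.0033 and -0.022 in their deviations from group means, and LSEC libraries at 0.85, 0.59 and 0.63. The pairing of LSEC libraries rests on these correlations; crossing numbers 2 and 3 gave 0.60 and 0.66, and replicate 1 stood apart in both groups.

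Named genes were called, did not overlap between groups, averaged at least 5 CPM in the higher group and were not gene models. They were ranks 1 to 22 by fold in each direction and the 8 with the largest difference in CPM. Added to these were the 6 with the smallest p under 1.5-fold and up to 4 with the smallest p in each of 42 lists. The largest changes, ranks 1 to 10, are thus among the 201 named genes. A rule for naming 10 genes of transcript usage was not applied, because that test varied with its settings. The members and lists were chosen with earlier results of these data known. Some genes that the rule names are not reported here.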

Additional observations from a re-analysis of the deposited data

Results flagged for a closer look

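The co-culture effect of 35 of the 201 named genes differed between Hepa1-6 cells and LSECs by the edgeR interaction test (adjusted p below 0.05 over 17346 genes, where 2.35% were called). Values are log2 fold changes of co-culture over alone, and a difference is Hepa1-6 minus LSEC. With the replicate number as a block 106 named genes were called, and without 1 library between 25 and 46.

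Genes higher in co-cultured Hepa1-6 cells had a negative value in LSECs as follows. Ramp3 had 4.08 in Hepa1-6 cells and -1.54 in LSECs, a difference of 5.62. Il11 had 4.51 in Hepa1-6 cells and -0.89 in LSECs, a difference of 5.39. Its LSEC means were 0.290 CPM in co-culture and 0.548 CPM alone. Ass1 had 2.83 in Hepa1-6 cells and -0.66 in LSECs, a difference of 3.49. Dclk1 had 2.44 in Hepa1-6 cells and -0.33 in LSECs, a difference of 2.77. Its LSEC means were 0.633 CPM in co-culture and 0.802 CPM alone. The LSEC values of Il11 and Dclk1 are therefore uncertain in size. Irs2 had 1.19 in Hepa1-6 cells and -0.89 in LSECs, a difference of 2.08. Gpr137b had 1.52 in Hepa1-6 cells and -0.21 in LSECs, a difference of 1.73. Nrg1 had 0.30 in Hepa1-6 cells and -1.22 in LSECs, a difference of 1.52. Crem had 1.18 in Hepa1-6 cells and -0.29 in LSECs, a difference of 1.46. Per1 had 0.79 in Hepa1-6 cells and -0.59 in LSECs, a difference of 1.38. Actn1 had 0.34 in Hepa1-6 cells and -1.01 in LSECs, a difference of 1.35. Itga3 had 0.45 in Hepa1-6 cells and -0.69 in LSECs, a difference of 1.14. Nr4a1 had 0.79 in Hepa1-6 cells and -0.28 in LSECs, a difference of 1.07. Bhlhe40 had 0.40 in Hepa1-6 cells and -0.66 in LSECs, a difference of 1.06. Ccn2 had 0.39 in Hepa1-6 cells and -0.66 in LSECs, a difference of 1.05. Ajuba had 0.18 in Hepa1-6 cells and -0.81 in LSECs, a difference of 0.99. Igfbp3 had 0.32 in Hepa1-6 cells and -0.60 in LSECs, a difference of 0.93. D17H6S56E-5 had 0.45 in Hepa1-6 cells and -0.34 in LSECs, a difference of 0.80.

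Genes higher in co-cultured Hepa1-6 cells had a positive value of another size in LSECs as follows. Slc7a2 had 0.99 in Hepa1-6 cells and 5.59 in LSECs, a difference of -4.60. Cyp7b1 had 0.60 in Hepa1-6 cells and 2.53 in LSECs, a difference of -1.93. Enpp2 had 0.40 in Hepa1-6 cells and 2.29 in LSECs, a difference of -1.89. In LSECs alone Cyp7b1 was at 0.832, 0.453 and 0.917 CPM and Enpp2 at 0.469, 0.340 and 0.430 CPM, so the sizes of these 2 LSEC values are uncertain. Cfb had 0.52 in Hepa1-6 cells and 2.39 in LSECs, a difference of -1.88. Socs3 had 0.63 in Hepa1-6 cells and 2.32 in LSECs, a difference of -1.69. C3 had 1.099 in Hepa1-6 cells and 2.72 in LSECs, a difference of -1.62. Cyp1a1 had 2.01 in Hepa1-6 cells and 1.21 in LSECs, a difference of 0.80. Dusp1 had 0.90 in Hepa1-6 cells and 0.16 in LSECs, a difference of 0.74. Birc3 had 0.24 in Hepa1-6 cells and 0.94 in LSECs, a difference of -0.70.

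Genes lower in co-cultured Hepa1-6 cells had a positive value in LSECs as follows. Ccl20 had -0.83 in Hepa1-6 cells and 5.31 in LSECs, a fitted difference of -6.14. Ccl20 was at 2.08, 1.02 and 1.35 CPM in co-cultured LSECs, against 0, 0.113 and 0 CPM in LSECs alone, so its fitted LSEC value and difference depend on the prior count and their size is uncertain. Pdgfb had -0.67 in Hepa1-6 cells and 0.34 in LSECs, a difference of -1.02. Ugcg had -0.12 in Hepa1-6 cells and 0.80 in LSECs, a difference of -0.92. P2rx4 had -0.23 in Hepa1-6 cells and 0.58 in LSECs, a difference of -0.81. Gas6 had -0.58 in Hepa1-6 cells and 0.22 in LSECs, a difference of -0.80. Jup had -0.27 in Hepa1-6 cells and 0.43 in LSECs, a difference of -0.71. Ptma had -0.12 in Hepa1-6 cells and 0.58 in LSECs, a difference of -0.70.

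Genes lower in co-cultured Hepa1-6 cells had a negative value of another size in LSECs as follows. Gpnmb had -0.51 in Hepa1-6 cells and -2.17 in LSECs, a difference of 1.66. Slc7a5 had -0.33 in Hepa1-6 cells and -1.17 in LSECs, a difference of 0.84.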

How the results depend on the processing

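In Hepa1-6 cells 1258 genes were higher and 1040 lower. RLE and upper-quartile scaling, no filter, a mean of 5 CPM and DESeq2 moved neither count by 1.5 times. On TPM values limma called 423 lower genes with a pseudocount of 1 and 433 with 0.1, all 12 libraries in 1 fit gave 38 and 3, and a threshold of 1.2-fold gave 214 and 27. Leaving out 1 library gave 918 to 1201 higher and 665 to 964 lower genes. The replicate block gave 1341 and 1195; same-numbered Hepa1-6 libraries share only a number, and co-culture replicate 1 alone correlated best with its own number. For the difference between cells (165 and 243 genes) the replicate block gave 1384 and 1624, and leaving out 1 library 82 to 337 and 134 to 389. Transcript usage (130 genes) gave 72 with voom and diffSplice, 60 with 10 or more counts in every library, 42 with the replicate block and 181 to 218 without 1 library. The cause was not tested. Of 201 named genes none reversed under these alternatives; 34 were not called on log2(TPM + 1), 181 in the fit of 12 libraries, and 1, Neat1, with the block. At this depth genes near 3 counts, 0.0689 to 0.0916 CPM, cannot be compared.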
